A study of Mus musculus with 4 samples.

Results

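The normal differentiation response of cultured mouse myoblasts, the dividing precursors of muscle fibres, was measured by RNA sequencing in cells that carried a control virus. The comparison sets 1 library of GFP-infected cells in differentiation medium (GFP DM) against 1 library of GFP-infected cells in growth medium (GFP GM), 2 of the 4 libraries of the series, over all 3760 genes that the authors deposited. The cells came from skeletal muscle of adult C57BL/6 mice and are labelled twist2+, and both groups had received a GFP retrovirus for 24 h and then growth medium for 24 h. GFP DM cells were then kept for 5 days in DMEM high glucose with 2% horse serum, and GFP GM cells were harvested from Ham's F10 with 20% fetal bovine serum; both were cultured on matrigel. Every library carried a retrovirus, so uninfected cells are not part of the comparison. The remaining libraries carried a Twist2 retrovirus in the same media and are named Twist2 DM and Twist2 GM. How many animals or cultures each library stands for is not given in the sources used here.

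When serum is withdrawn, myoblasts leave the cell cycle, fuse with each other into multinucleated myotubes and build sarcomeres, the repeating contractile units of muscle. The basic helix-loop-helix factors Myod1 and Myog bind E-boxes, often together with the Mef2 proteins, and turn on muscle genes, while the Id proteins hold such factors inactive in growing cells. Genes of cell division are switched off by complexes of the retinoblastoma family, and their promoters commonly carry a CCAAT box and a cell cycle homology region.

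The GFP DM library held 9235281 reads and the GFP GM library 9744075, as worked out from the steps between CPM values, and listed genes took 65.1% and 39.3% of them. Values are read counts scaled to the library's total (CPM), and ratios are log2 of (CPM + 1), GFP DM over GFP GM, which understates the difference of genes with few reads. Intervals are exact 95% counting intervals of the log2 ratio of the reads without the added 1; reads carry no molecular identifiers, so intervals cover counting error only. With 1 library a side no difference has a replicate check, no test was made, and medium, serum, 5 days in culture and differentiation cannot be told apart. In bulk RNA, fewer cells of a type and less RNA per cell cannot be told apart either. Twist2 had 0 reads in GFP DM and 1 read in GFP GM, so the label twist2+ was not visible as RNA of that gene. Muscle markers had many reads: all 16 muscle fibre markers were listed, with a summed 79499 CPM in GFP DM and 2006 CPM in GFP GM. Of 10 myoblast markers 7 were listed, with 16347 and 5863 CPM. Desmin (Des), also expressed by differentiating muscle cells, held much of that sum, at 6503 and 1501 CPM. By the calls defined below, 3 of the 7 were higher in GFP DM and 2 lower, the latter including Pax7 (log2 ratio -3.99). The table holds only genes that reached 10 CPM in at least 2 libraries and 2-fold in at least 1 of the authors' 3 comparisons with GFP GM, so a gene outside it is not shown to be unexpressed. Marker lists were chosen with earlier results of these data known, so that markers are listed is no separate check of the label.

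A few promoter windows are printed here because they show the letters searched for in the muscle, mitotic and sterol groups described further on. Each runs from 250 bases before to 50 bases after the RefSeq start on GRCm38.p6, 5′ to 3′ on the gene's strand. In the first pair, of the muscle regulator Myog and of the cardiac and slow-muscle calsequestrin Casq2, capitals mark E-boxes (CANNTG) and the MEF2 core. That core was searched as YTAWWWWTAR, where Y is C or T, W is A or T, and R is A or G. In the next 3, of the mitotic genes Ccnb2 (cyclin B2), Cdc20 and Plk1, capitals mark the CCAAT box and the cell cycle homology core TTTGAA. In the last, of the cholesterol enzyme gene Hmgcs1, they mark CCAAT boxes and the sterol regulatory letters TCACNCCAC. Both strands were searched throughout.
Myog, chr1:134289754-134290053, plus strand: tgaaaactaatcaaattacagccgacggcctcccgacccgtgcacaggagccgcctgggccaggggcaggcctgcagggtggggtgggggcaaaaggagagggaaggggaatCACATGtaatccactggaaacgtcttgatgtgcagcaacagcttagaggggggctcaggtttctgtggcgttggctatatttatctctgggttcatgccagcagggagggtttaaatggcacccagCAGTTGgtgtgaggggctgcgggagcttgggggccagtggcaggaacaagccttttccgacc
Casq2, chr3:102086165-102086464, plus strand: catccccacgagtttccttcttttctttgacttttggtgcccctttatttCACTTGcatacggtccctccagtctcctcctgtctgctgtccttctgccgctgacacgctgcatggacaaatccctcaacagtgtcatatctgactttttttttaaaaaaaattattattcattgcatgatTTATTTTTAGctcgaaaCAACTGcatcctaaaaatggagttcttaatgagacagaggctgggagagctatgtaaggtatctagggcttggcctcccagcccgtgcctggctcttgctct
Ccnb2, chr9:70421505-70421804, minus strand: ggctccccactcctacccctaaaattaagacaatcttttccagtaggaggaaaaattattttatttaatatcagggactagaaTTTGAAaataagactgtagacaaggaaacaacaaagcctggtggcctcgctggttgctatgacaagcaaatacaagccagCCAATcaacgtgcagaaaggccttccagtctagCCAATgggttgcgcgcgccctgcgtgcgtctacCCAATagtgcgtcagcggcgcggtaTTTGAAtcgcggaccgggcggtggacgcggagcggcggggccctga
Cdc20, chr4:118437294-118437593, minus strand: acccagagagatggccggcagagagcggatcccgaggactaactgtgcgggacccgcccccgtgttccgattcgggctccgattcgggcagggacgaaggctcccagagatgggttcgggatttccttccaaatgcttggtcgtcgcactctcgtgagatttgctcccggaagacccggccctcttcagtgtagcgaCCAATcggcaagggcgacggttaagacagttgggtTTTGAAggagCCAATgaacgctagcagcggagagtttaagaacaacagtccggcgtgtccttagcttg
Plk1, chr7:122159185-122159484, plus strand: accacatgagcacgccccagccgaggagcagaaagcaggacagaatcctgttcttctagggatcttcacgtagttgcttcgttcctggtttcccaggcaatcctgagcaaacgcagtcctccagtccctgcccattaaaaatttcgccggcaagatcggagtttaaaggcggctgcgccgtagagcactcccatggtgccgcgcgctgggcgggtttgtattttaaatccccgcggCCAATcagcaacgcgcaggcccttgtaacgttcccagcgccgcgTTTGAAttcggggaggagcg
Hmgcs1, chr13:119690101-119690400, plus strand: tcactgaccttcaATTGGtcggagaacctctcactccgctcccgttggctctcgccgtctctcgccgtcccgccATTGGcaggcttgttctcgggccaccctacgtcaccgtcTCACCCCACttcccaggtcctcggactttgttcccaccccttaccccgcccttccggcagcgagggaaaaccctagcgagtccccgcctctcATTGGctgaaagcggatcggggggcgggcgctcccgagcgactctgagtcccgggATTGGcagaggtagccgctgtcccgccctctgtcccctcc

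Myog and Casq2 each held 2 E-boxes, and Casq2 also held 1 MEF2 core as searched. The Myog window holds the letters ctatatttat, which differ from that core only in the last base and were not counted. The search thus does not show that Myog lacks a MEF2 site. Ccnb2 held 3 CCAAT boxes and 2 cores TTTGAA, Cdc20 held 2 and 1, and Plk1 held 1 of each. Hmgcs1 held 4 CCAAT boxes and 1 sterol regulatory sequence. Their levels lay far apart between the libraries: Casq2 had 1709 CPM in GFP DM and 3.69 CPM in GFP GM, Ccnb2 had 0.433 and 76.7 CPM, and Hmgcs1 had 262 and 29.7 CPM.

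The response was broad. Among 3694 genes with 10 CPM or more in at least 1 GFP library, 1205 (32.6%) were called higher in GFP DM, meaning at least 2-fold, and 1511 (40.9%) were called lower, so that 73.5% were called in either direction. These shares are raised by the authors' selection, which used this comparison, and they are the background for the counts of list members below. The median log2 ratio of all listed genes was -0.40, with quartiles of -1.41 and 1.20. At least 8-fold higher were 225 genes and at least 8-fold lower 242, and at 16-fold the counts were 131 and 122. At 64-fold the counts were 48 higher and 4 lower, but the added 1 CPM lowers the ratio of genes with few reads in GFP DM: by counting intervals wholly past 64-fold they were 51 and 21. The genes called higher took 49.3% of the GFP DM reads and 10.3% of the GFP GM reads. Those called lower took 4.92% of the GFP DM reads and 17.5% of the GFP GM reads. The counting interval left out equality for all 2716 called genes, which at these depths follows from the call rule itself and is no separate check. It lay wholly past 2-fold for 984 of the higher and 1152 of the lower ones. Scaling each library to the reads of unlisted genes (outside-table scaling) moved the median of all genes up by 0.78, so that 1490 genes were higher and 646 lower. Many counts and named calls that this scaling changed are given with their groups. Not all are, so a count or call given alone is not shown to hold under it. Near the threshold, 94 genes had a ratio between 2 and 2.1 and 27 had one between 1.9 and 2 on the higher side, against 133 and 32 on the lower side.

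**Figure D1:**
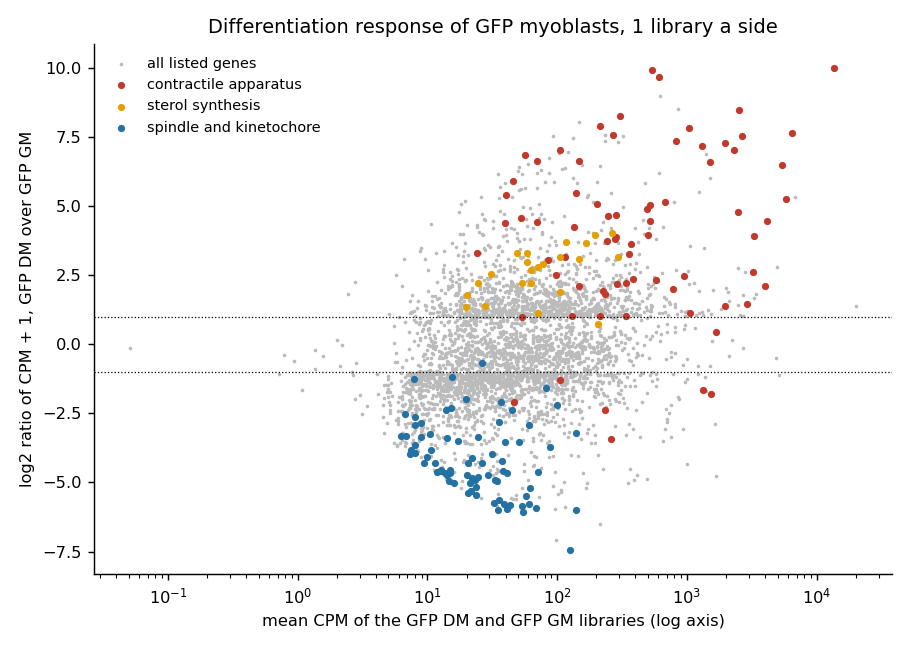
Log2 ratio of CPM + 1, GFP DM over GFP GM, of the 3760 listed genes (points) against the mean CPM of both libraries on a log axis; dotted lines mark 2-fold. Contractile genes in red lie mostly at the top right, spindle genes in blue at the bottom, and sterol synthesis genes in orange reach a log2 ratio of 4.03.

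Reads were concentrated in few listed genes in GFP DM. The 10 listed genes with most reads in GFP DM took 13.4% of its reads and 1.55% of the reads of GFP GM. They were the noncoding RNA H19, the embryonic myosin heavy chain Myh3, C1qtnf3, the skeletal and smooth muscle actins Acta1 and Acta2, titin (Ttn), the fast myosin light chain Mylpf, the growth factor Igf2, desmin (Des) and the tropomyosin Tpm2. C1qtnf3 encodes a secreted protein related to complement C1q and is no part of the sarcomere, and it had 13334 CPM in GFP DM and 329 CPM in GFP GM (log2 ratio 5.34, interval 5.29 to 5.39). The 10 listed genes with most reads in GFP GM took similar shares, 4.48% of the reads in GFP DM and 4.17% in GFP GM. H19 led these too, followed by vimentin (Vim), Igfbp5, fibronectin (Fn1), Thbs1, Ahnak, Peg3, Actb, Lrp1 and the ribosomal RNA precursor Rn45s. Fn1 had 119 CPM in GFP DM and 3248 CPM in GFP GM, whereas Igfbp5 had 4025 and 5739 CPM.

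Of 20 listed factors and cofactors, 8 were called higher and 5 lower, with a median of -0.20. With outside-table scaling 9 were higher and 1 lower, and the median was 0.59. Mef2c, a partner of the myogenic factors, had 264 CPM in GFP DM and 0.513 CPM (5 reads) in GFP GM, and Myog had 1075 and 76.4 CPM (3.80, interval 3.71 to 3.92). Myod1, which is already present in growing myoblasts, had 810 CPM in GFP DM and 1184 CPM in GFP GM. Other factors called higher were Klf5 (61.5 CPM in GFP DM and 2.36 CPM in GFP GM), Tead4 (181 and 12.5 CPM), Mef2d (297 and 80.3 CPM) and Tead1 (771 and 290 CPM). Klf5 is a zinc finger factor, and the Tead proteins bind the MCAT elements of muscle promoters. Mef2a, of the same family as Mef2c, stayed under 2-fold with 639 and 873 CPM. Called lower were Six4 (40.2 CPM in GFP DM and 103 CPM in GFP GM), a homeobox factor of muscle progenitors, and Tcf3 (48.2 and 165 CPM), the general partner of Myod1. Jdp2, a repressor of the AP-1 family, and the corepressor Rcor2 were also called lower. Of these lower calls, those of Six4, Tcf3 and Rcor2 were lost with outside-table scaling.

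The Id genes and Atoh8 were low in GFP DM. Id1 stood at 4.11 CPM in GFP DM and 209 CPM in GFP GM, Id2 at 9.10 and 330 CPM, Id3 at 3.68 and 421 CPM, and Atoh8 at 0.866 and 90.1 CPM. All 4 log2 ratios were thus -5.03 or lower. Hes6, which opposes Hes1 and favours muscle differentiation, was called higher (546 and 140 CPM), as was the tendon factor Scx (258 and 61.3 CPM). Of 23 listed progenitor factors and receptors, 13 were called lower and 6 higher, and 11 and 7 with outside-table scaling. Pax7 and its relative Pax3 stood at 4.01 and 2.92 CPM in GFP DM, against 78.7 and 10.8 CPM in GFP GM; the call of Pax3 was lost with outside-table scaling. Erbb3, a neuregulin receptor, went the other way with 330 CPM in GFP DM and 7.18 CPM in GFP GM, and its partner Erbb2 had 206 and 33.0 CPM.

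Genes of the contractile apparatus were called higher in GFP DM with few exceptions. The 7 lists from myosins to the Z-disc held 73 listed genes, of which 65 were called higher and 6 lower (median 4.26), and they took 15.6% of the GFP DM reads and 1.67% of the GFP GM reads. The genes called lower were Myh9, Myh10, Actb, Actg1, Tpm4 and Tmod3, the myosin, actin, tropomyosin and tropomodulin forms of the general cytoskeleton. Myh9 and Myh10 were no longer called with outside-table scaling. Reads of closely related genes may have been divided between copies, since the authors' counting is not given in the sources used here.

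Within each family the levels can be ordered per length, as CPM per kilobase of the longest annotated transcript. Among myosin heavy chains in GFP DM, the embryonic Myh3 reached 4529 per kilobase, the perinatal Myh8 174, the nonmuscle Myh9 86.8, the slow Myh7 68.7, the adult fast Myh1 34.6 and the nonmuscle Myh10 7.76. In GFP GM the nonmuscle forms led, with Myh9 at 272, Myh10 at 19.3 and Myh3 at 4.29 per kilobase. The skeletal, smooth and cardiac actins Acta1, Acta2 and Actc1 stood at 8850, 3905 and 3547 per kilobase in GFP DM, and at 43.2, 178 and 18.6 in GFP GM, where Actb at 1230 was the highest. Among troponins in GFP DM, the slow and cardiac Tnnc1 (3602) and the fast Tnnc2 (2924) led, followed by the slow Tnni1 (1794), the cardiac Tnnt2 (1421), the fast Tnnt3 (876), the slow Tnnt1 (649) and the fast Tnni2 (307). Fast, slow and cardiac forms were thus all present in the GFP DM library. The fast light chain Mylpf had 13899 per kilobase in GFP DM, against 2734 for Myl1 and 1532 for the embryonic Myl4.

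The remaining contractile lists were almost uniform. All 14 genes of titin, the thick filament and the M-band were called higher (median 5.12), led by the myosin binding protein Mybpc1 (534 CPM in GFP DM and 1.85 CPM in GFP GM) and the M-band protein Myom2 (1630 and 8.93 CPM). The myosin chaperone Unc45b had 393 and 10.6 CPM. Of 26 Z-disc genes, 25 were called higher (median 2.57). Actn2, the main Z-disc crosslinker, had 1219 CPM in GFP DM and 0.513 CPM in GFP GM, and Myoz2 had 113 CPM in GFP DM and 0 reads in GFP GM, at least 367-fold higher over the floor of 3 reads. The single Z-disc gene under 2-fold was Ankrd1, a stretch-responsive gene, with 1930 and 1424 CPM, and it passed 2-fold with outside-table scaling.

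Within protein families the muscle forms were mostly the higher ones in GFP DM. In all, 10 pairs of a striated muscle form and a more widely expressed form of the same protein were listed together. The muscle form was at least 2-fold higher in all 10, and the other form at least 2-fold lower in 8, or in 4 with outside-table scaling, which left Flna, Actb, Tmod3 and Tpm4. Per length, the muscle form made up over 50% of its pair in 9 pairs in GFP DM and in 2 pairs in GFP GM. The 2 in GFP GM were near equality, Pygm with Pygb at 50.02% and Phka1 with Phka2 at 50.10%. Phka1, at 50.07% in GFP DM, is also 1 of the 9, so its share was unchanged. Phosphoglycerate mutase Pgam2 was 93.66% of its pair with Pgam1 in GFP DM and 17.95% in GFP GM. Filamin C (Flnc) was 96.6% of its pair with filamin A (Flna) in GFP DM and 35.1% in GFP GM. Flna itself had 92.8 CPM in GFP DM and 1900 CPM in GFP GM. In the remaining 2 pairs both forms were at least 2-fold higher: the creatine kinases Ckm and Ckb and the phosphorylase kinase subunits Phka1 and Phka2. Ckb rather than Ckm remained the larger per length, since Ckm was 26.5% of the pair in GFP DM and 4.46% in GFP GM.

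**Figure D2:**
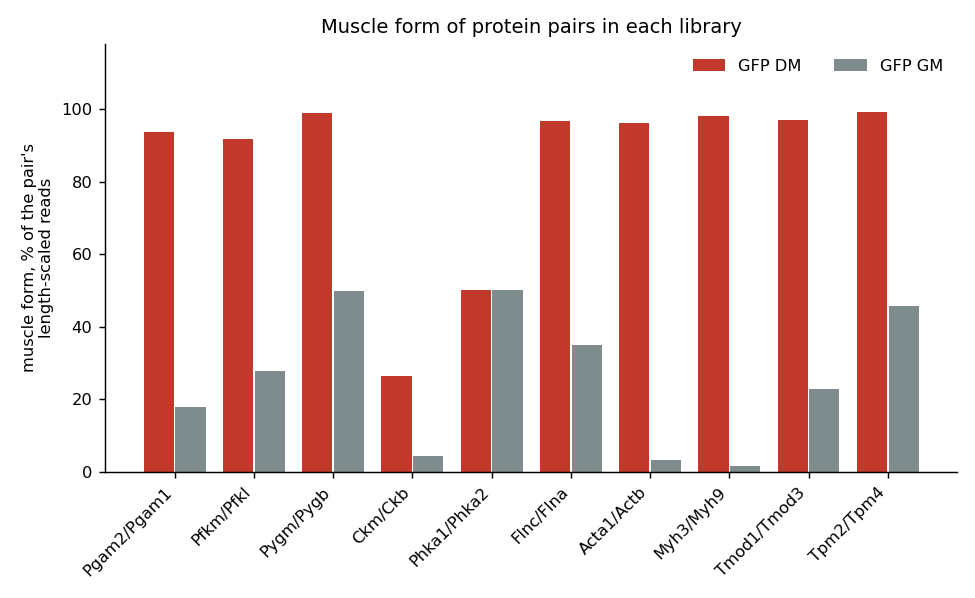
Share of the striated muscle form in the length-scaled reads of its pair, in percent, in GFP DM (red) and GFP GM (grey), 1 library each. The muscle form lies above 90% in GFP DM in 8 of the 10 pairs; in GFP DM it is lowest for Ckm, at 26.5%, against 4.46% in GFP GM.

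Membrane systems that link the nerve impulse to contraction were called higher. All 23 listed genes of the triad and sarcoplasmic reticulum were called higher (median 2.91), from the calcium channel subunit Cacna1s (637 CPM in GFP DM and 2.46 CPM in GFP GM) to the channel adaptor Stac3 (299 and 143 CPM). The calcium release channel Ryr1 had 2486 and 219 CPM. Of 17 genes of the dystrophin complex and costamere, 14 were called higher, and dystrophin (Dmd) had 261 CPM in GFP DM and 3.08 CPM in GFP GM. The muscle protease Capn3 had 292 CPM in GFP DM and 0.103 CPM, a single read, in GFP GM. Dtnb, the beta form of dystrobrevin, was called lower (6.39 and 15.6 CPM), though not with outside-table scaling, while its relative Dtna was called higher (102 and 46.4 CPM).

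At the postsynaptic membrane, 7 of 12 listed genes were called higher and 1 lower (median 1.47), and 11 and 0 with outside-table scaling. The acetylcholine receptor subunits Chrnd (745 CPM in GFP DM and 122 CPM in GFP GM), Chrng (804 and 193 CPM) and Chrna1 (3120 and 1061 CPM) passed 2-fold, and Chrnb1 (464 and 304 CPM) did not. Colq, which anchors acetylcholinesterase, had 71.1 and 1.54 CPM. The receptor kinase Musk (351 and 266 CPM) and the clustering protein Rapsn (149 and 92.6 CPM) stayed under 2-fold in CPM; with outside-table scaling Musk, Rapsn and Chrnb1 passed it. A pair of connexins outside these lists lay in opposite directions: Gja5 had 186 CPM in GFP DM and 0 reads in GFP GM, at least 605-fold higher, and Gja1 had 2.82 and 226 CPM.

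Nuclear and cytoskeletal linker genes followed a mixed course, with 14 of 24 called higher and 6 lower (median 1.21), and 16 and 6 with outside-table scaling. Nuclei move along microtubules in young myotubes and settle at their edge. Akap6, a scaffold of the muscle nuclear envelope, had 542 CPM in GFP DM and 58.6 CPM in GFP GM, the spectraplakin Macf1 had 4827 and 792 CPM, and the kinesin Kif5b had 1193 and 431 CPM. The nesprins split, with Syne1 called higher (582 and 239 CPM) and Syne2 called lower (2.27 and 38.4 CPM). Tubulins split too: Tubb6 (943 and 175 CPM), Tuba4a, Tuba1a, Tuba1b and Tubb2a were called higher, and Tuba1c (9.96 and 56.8 CPM) and Tubb3 (9.20 and 70.4 CPM) lower. Tubb5 was also called lower, and Tubb2b was called in neither direction in CPM but higher with outside-table scaling.

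The sterol synthesis pathway was higher in GFP DM. It makes cholesterol from acetyl-CoA and is controlled by the SREBP factors, which are retained by the Insig proteins when sterols are plentiful. All 18 enzymes of the pathway examined singly were called higher in GFP DM, with log2 ratios between 1.13 and 4.03 and a median of 2.84, and their summed level was 2605 CPM in GFP DM and 327 CPM in GFP GM. The highest ratio was that of the demethylase Cyp51, at 497 CPM in GFP DM and 29.5 CPM in GFP GM (4.03, interval 3.91 to 4.26), and the lowest that of the epoxidase Sqle, at 98.8 and 44.5 CPM. Insig1 had 371 CPM in GFP DM and 22.9 CPM in GFP GM, while Srebf2, which encodes the main regulator of this pathway, stayed under 2-fold (258 and 156 CPM), which it passed with outside-table scaling. The list's 23 genes held 22 called higher and 0 called lower, beside 32.6% and 40.9% of all genes with 10 CPM or more. The 18 enzymes were also called higher in Twist2 DM against Twist2 GM. The growth and differentiation media differ in their serum, and its part in this result was not tested.

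**Figure D3:**
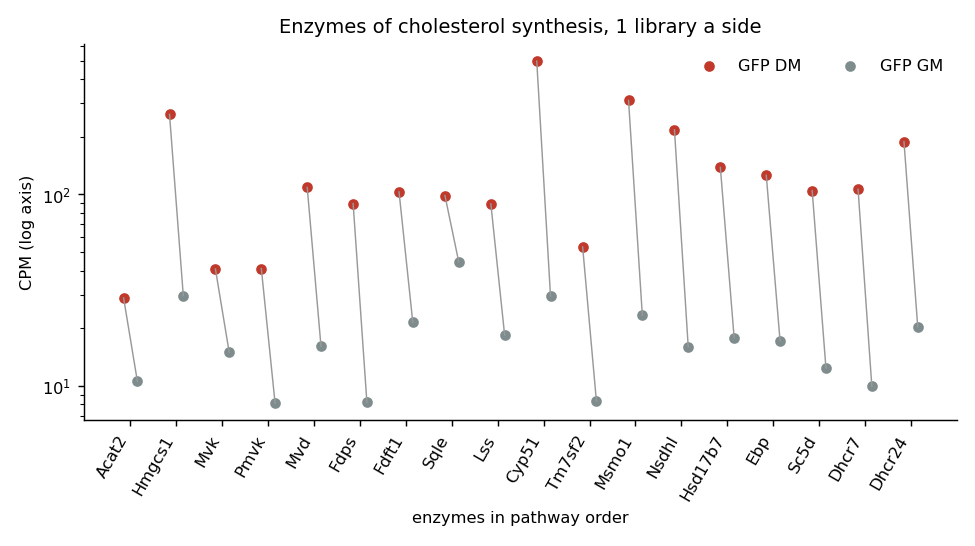
CPM on a log axis of 18 enzymes of cholesterol synthesis in pathway order, in GFP DM (red) and GFP GM (grey), 1 library each, with a line joining each gene's values. Every enzyme lies higher in GFP DM, most widely so for Cyp51.

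Lipid desaturation went the same way, and fatty acid genes in general were divided. Scd1, a stearoyl-CoA desaturase, had 370 CPM in GFP DM and 9.44 CPM in GFP GM, and Scd2 had 4280 and 627 CPM. Of 22 listed fatty acid genes, 11 were called higher and 7 lower (median 1.01), and 15 and 1 with outside-table scaling. The acyl-CoA synthetases split between Acsl6, Acsl3 and Acsl1, called higher, and Acsl5, called lower. The call of Acsl5 was lost with each of the other scalings. The carnitine transferase Cpt1a (84.2 CPM in GFP DM and 223 CPM in GFP GM), the droplet protein Plin2 (64.4 and 210 CPM) and Fabp5 (3.46 and 19.2 CPM) were called lower, of which Fabp5 alone stayed so with outside-table scaling.

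Genes of sugar use were mostly higher, and several of the exceptions were nonmuscle forms. Of 29 listed genes of glycolysis, glycogen and phosphocreatine, 23 were called higher and 6 lower (median 1.86). Glycogen phosphorylase Pygm had 1547 CPM in GFP DM and 42.3 CPM in GFP GM, the glucose transporter Slc2a4 had 78.7 and 0.411 CPM, and the glycogen-targeting subunit Ppp1r3a had 140 and 0.924 CPM. Called lower were Pgk1, Pgam1, Pygb, Pfkl, Pgm1 and Gpd2, of which Gpd2 was lowest with 19.8 and 122 CPM. With outside-table scaling Gpd2 was the 1 gene of the list still called lower, and with median-of-ratios size factors 4 were. Of 25 citrate cycle and respiratory genes, 22 were called higher and 0 lower (median 1.15). Most of these lay close to the threshold, so that 17 remained with an added 5 CPM in place of 1. The largest ratios belonged to the muscle subunits of cytochrome oxidase, Cox6a2 (227 CPM in GFP DM and 1.74 CPM in GFP GM) and Cox8b (105 and 1.13 CPM).

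Genes of cell division were lower in GFP DM almost throughout. The lists of replication, repair and the spindle held 129 listed genes, of which 123 were called lower and 1 higher, and they took 0.0680% of the GFP DM reads and 0.660% of the GFP GM reads. Of 79 spindle, kinetochore and cytokinesis genes, 78 were called lower (median -4.30, or -4.56 with 6 genes without a read in GFP DM at their bound). The kinetochore motor Cenpe had 0.650 CPM in GFP DM and 109 CPM in GFP GM, Top2a had 3.36 and 276 CPM, and Mki67 had 0.433 CPM, or 4 reads, and 248 CPM. Replication genes were lower by less: 30 of 32 were called, with a median of -2.42. The helicase subunits Mcm3 (5.96 CPM in GFP DM and 34.1 CPM in GFP GM) and Mcm6 (10.8 and 96.9 CPM) and the clamp Pcna (15.1 and 34.5 CPM) kept reads in GFP DM, and the call of Pcna was lost with outside-table scaling. The repair list held 15 of 18 genes called lower (median -2.57), including Brca1 (0.758 and 20.4 CPM), and Xrcc3 (20.6 and 9.65 CPM) was the gene called higher. Still lower with outside-table scaling were 75 of the 79 spindle genes, 24 of the 32 replication genes and 12 of the 18 repair genes.

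Cyclins and kinases of the G1 and S phases were split. Ccnd1 had 30.0 CPM in GFP DM and 700 CPM in GFP GM, whereas Ccnd3, the D cyclin kept by differentiated muscle, had 1248 and 536 CPM. Cdk4, Cdk6 and Cdk1 were called lower, but Cdk2 had 208 CPM in GFP DM and 32.6 CPM in GFP GM (2.63, interval 2.50 to 2.85). E2f2 (43.0 and 14.5 CPM) and the repressor E2f8 (77.9 and 29.0 CPM) were called higher, while its close relative E2f7 had 0 reads in GFP DM and 11.7 CPM in GFP GM. In all, 12 of these 19 genes were called lower and 4 higher (median -1.71), and 8 and 5 with outside-table scaling. Cdk4 and E2f7 lost their calls under that scaling. E2f7, with 0 reads in GFP DM, did so only because its scaled GFP GM level fell under the minimum of 10 CPM. Among 12 cell cycle inhibitors and p53 targets, Cdkn1a (3223 and 787 CPM) and Cdkn2b (48.3 and 16.5 CPM) were called higher. Bax (60.6 and 170 CPM) and Trp53inp1 (65.2 and 156 CPM) were called lower, but no member of this list was lower by 2-fold with outside-table scaling.

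Signalling genes were mixed within every pathway. Of 25 TGF-beta and BMP genes, 7 were called higher and 8 lower (median -0.45), and 11 and 6 with outside-table scaling (median 0.31). Both follistatin (Fst), at 507 CPM in GFP DM and 10.5 CPM in GFP GM, and myostatin (Mstn), the muscle growth inhibitor that follistatin binds, at 48.3 and 1.95 CPM, were called higher. The activin subunit Inhbb (1.62 CPM in GFP DM and 48.7 CPM in GFP GM) and the feedback inhibitors Smad6 and Smad7 were called lower. In the insulin-like growth factor axis, the ligands Igf2 (8642 CPM in GFP DM and 1252 CPM in GFP GM) and Igf1 (51.3 and 14.7 CPM) were called higher. The receptor Igf1r (85.2 and 224 CPM) and the binding proteins Igfbp2 (135 and 363 CPM) and Igfbp3 (121 and 308 CPM) were called lower. With outside-table scaling these 3 lower calls were lost, and the list's median of -0.26 was 0.51.

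Of 28 receptor tyrosine kinase genes, 14 were called lower and 6 higher (median -1.34), and 9 and 8 with outside-table scaling. Met, the receptor of hepatocyte growth factor, had 27.4 CPM in GFP DM and 336 CPM in GFP GM, Fgfr1 had 104 and 381 CPM, and the ligand Efnb2 had 8.77 and 165 CPM. Epha3 (17.1 and 0.616 CPM) and the ligand Hbegf (79.0 and 21.4 CPM) joined Erbb2 and Erbb3 on the higher side. Among 9 Notch genes, 5 were called lower, including Notch3 (4.98 CPM in GFP DM and 126 CPM in GFP GM), Notch2 (90.1 and 297 CPM) and Hey1 (2.27 and 12.6 CPM), and the presenilin Psen2 was called higher (104 and 15.9 CPM). With outside-table scaling 2 of the 9 were lower, without Notch2, and the list's median of -1.28 was -0.49. In the Wnt list, the acyltransferase Porcn, the ligand Wnt9a and the receptors Fzd2, Fzd5 and Fzd7 were called higher. So was Wisp1, a matricellular target of the pathway. The nuclear effectors Lef1 (6.82 CPM in GFP DM and 81.1 CPM in GFP GM), Tcf7l2 and Tcf7l1 and the receptor Lgr6 (43.4 and 331 CPM) were called lower, Tcf7l1 not with outside-table scaling.

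Matrix genes were called in both directions. Of 37 glycoproteins and proteoglycans, 20 (54.1%) were called lower and 10 higher (median -1.53), and 16 and 10 with outside-table scaling (median -0.74). Fn1, Tnc (2.06 CPM in GFP DM and 141 CPM in GFP GM) and Fbln2 (7.80 and 325 CPM) stood on the lower side. The heparan sulphate carriers Gpc1 (2503 and 646 CPM) and Gpc4 (211 and 20.9 CPM), the synaptic laminin Lamb2 (400 and 126 CPM) and the crosslinker Lox (76.0 and 10.7 CPM) stood on the higher side. Laminin chains divided, with Lamb1 called lower (91.1 and 414 CPM). Of 19 collagens, 5 were called higher and 6 lower (median -0.76), and 8 and 4 with outside-table scaling (median 0.04). Col25a1, a transmembrane collagen of muscle needed for its innervation in mice, had 339 CPM in GFP DM and 7.08 CPM in GFP GM, and the basement membrane chain Col4a1 had 142 and 1200 CPM. Of 25 proteases and inhibitors, 16 were called lower and 4 higher (median -1.43), and 8 and 5 with outside-table scaling (median -0.65). The genes called higher were the metalloprotease family members Adamtsl2, Adamts1, Adamts5 and Adam19.

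Protein quality control genes were mostly higher. Of 19 folding genes, 15 were called higher and 3 lower (median 1.70). The small heat shock genes Hspb7 (106 CPM in GFP DM and 2.46 CPM in GFP GM) and Hspb2 (181 and 14.1 CPM) and the reticulum chaperone Hspa5 (1685 and 772 CPM) were called higher. The general chaperones Hsp90aa1 (156 and 379 CPM), Hspd1 (153 and 430 CPM) and Dnajb1 (18.6 and 54.7 CPM) were called lower, but none of the 3 with outside-table scaling. Of 17 ubiquitin ligase and atrophy genes, 14 were called higher (median 2.54), with the muscle ligase adaptor Asb2 at 397 and 5.85 CPM and the atrophy ligase Trim63 at 79.9 and 0.924 CPM. Foxo1, a factor that drives atrophy genes, was called lower (60.1 and 132 CPM), though not with outside-table scaling.

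Ribosomal genes were lower by a small step. Of 16 listed ribosome and nucleolus genes, 12 were called lower and 1 higher, with a median of -1.13. These calls depended on scaling: 3 of the 16 were lower with median-of-ratios size factors and 1 with outside-table scaling. That 1 gene had the lowest ratio, Npm1, a nucleolar protein, at 109 CPM in GFP DM and 453 CPM in GFP GM. The host genes of small nucleolar RNAs Gas5 (83.1 and 233 CPM) and Snhg1, Snhg3, Snhg5, Snhg8 and Snhg12 were called lower as well, of which Snhg3 alone stayed so with outside-table scaling.

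RNA-binding and chromatin genes went both ways. The splicing factors Rbfox1 (76.8 CPM in GFP DM and 3.28 CPM in GFP GM) and Rbm24 (170 and 10.7 CPM) were called higher. The splicing repressors Ptbp1 (81.6 and 309 CPM) and Ptbp3 (44.2 and 172 CPM) and Mbnl3 (1.73 and 20.0 CPM) were called lower, while Mbnl1 and Mbnl2 stayed under 2-fold, Mbnl1 not with outside-table scaling. Over the 24 listed genes, 7 were called in each direction (median -0.10), and 10 higher and 4 lower with outside-table scaling (median 0.67). The cytoplasmic polyadenylation element binding proteins Cpeb2 (52.2 CPM in GFP DM and 12.2 CPM in GFP GM), Cpeb3 (44.6 and 10.2 CPM) and Cpeb4 (260 and 58.6 CPM) were each called higher. Of 28 chromatin regulators, 14 were called lower and 6 higher (median -1.18), and 9 in each direction with outside-table scaling (median -0.41). Hmga2, a chromatin protein of growing cells, had 19.8 CPM in GFP DM and 677 CPM in GFP GM, and the methyltransferases Ezh2 (14.4 and 58.8 CPM), Suv39h1 (18.2 and 141 CPM) and Dnmt1 (35.7 and 110 CPM) were called lower, Dnmt1 not with outside-table scaling. Smyd1, a muscle methyltransferase, had 648 and 66.2 CPM, and Dnmt3a had 71.9 and 27.2 CPM.

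Imprinted genes and noncoding RNAs went both ways, with 7 of 25 called higher and 8 lower (median -0.31), and 8 and 3 with outside-table scaling (median 0.49). H19 had 29045 CPM in GFP DM and 11102 CPM in GFP GM, Igf2 had 8642 and 1252 CPM, and Peg10 had 1952 and 167 CPM. Mest stood at 29.1 CPM in GFP DM and 793 CPM in GFP GM, and the zinc finger gene Plagl1 at 105 and 1192 CPM. Peg3 (1781 and 2412 CPM) and Meg3 (12.3 and 10.5 CPM) stayed under 2-fold.

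Serum response and inflammatory genes were divided as well. Of 22 immediate early and serum response genes, 9 (40.9%, the same share as over all genes) were called lower and 5 higher (median 0.01), and 7 and 10 with outside-table scaling (median 0.80). Fosl1, Jun (48.9 CPM in GFP DM and 196 CPM in GFP GM), Myc (8.01 and 34.8 CPM) and Klf2 (3.68 and 50.9 CPM), all transcription factors, were called lower. The actin-binding genes Tagln (94.7 CPM in GFP DM and 6.16 CPM in GFP GM) and Vcl (720 and 310 CPM) were called higher. Of 17 inflammatory and interferon genes, 9 were called lower and 5 higher (median -1.08), and 3 and 6 with outside-table scaling (median -0.32). The chemokine Cxcl12 (2.92 and 117 CPM), the macrophage growth factor Csf1 (129 and 678 CPM) and the peptide transporter Tap1 (6.61 and 55.6 CPM) were called lower, and the cytokine Il15 (23.5 and 2.98 CPM) was called higher.

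Channels, adhesion molecules and amino acid genes each had leaders of their own. Of 18 channels and pumps, 8 were called higher and 5 lower, and 9 and 2 with outside-table scaling. Among those called higher were the purine receptor P2rx5 (81.3 CPM in GFP DM and 11.0 CPM in GFP GM) and the sodium pump subunit Atp1b1 (77.1 and 4.82 CPM). Potassium channels split, with Kcnn3 called higher (49.6 and 8.83 CPM) and Kcnn4 lower (5.63 and 39.8 CPM). Of 19 integrins, cadherins and related molecules, 7 were called higher and 5 lower (median 0.43), and 11 and 2 with outside-table scaling. They included Itga7, the laminin receptor of muscle fibres (4966 and 1537 CPM), and on the lower side Cdh11 (11.4 and 73.7 CPM). Of 13 serine, one-carbon and ATF4 genes, 9 were called higher and 2 lower (median 1.23). The glycine transporter Slc6a9 led them with 104 CPM in GFP DM and 6.47 CPM in GFP GM. Of 22 lysosome and autophagy genes, 8 were called higher and 3 lower (median 0.59), and 13 and 1 with outside-table scaling. The lysosomal regulator Tfeb was called higher (30.6 and 3.90 CPM) and its relative Tfe3 lower (18.3 and 48.2 CPM), the call of Tfe3 being lost with that scaling. In the list of fusion and membrane remodelling, 5 of 13 genes were called higher and 3 lower (median 0.52), and 8 and 1 with outside-table scaling; the repair protein Dysf had 440 and 50.9 CPM.

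Further genes at the ends of the ranking belong to none of these pathways. Ctrb1, the pancreatic protease precursor chymotrypsinogen B, had 1241 CPM in GFP DM and 1.44 CPM in GFP GM (8.99, interval 9.01 to 10.63). Prkg1, a kinase activated by cyclic GMP, had 462 and 1.44 CPM, and the small muscle protein Smpx had 583 and 2.67 CPM. At the other end, the sodium channel Scn9a had 0.433 CPM in GFP DM and 195 CPM in GFP GM. The anchoring protein Akap12 (2.06 and 191 CPM), the hedgehog-binding Hhip (0.217 and 68.7 CPM), the acyl-CoA synthetase Acsbg1 (0.217 and 64.9 CPM) and the water channel Aqp1 (0.975 and 95.6 CPM) lay near it.

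**Figure D4:**
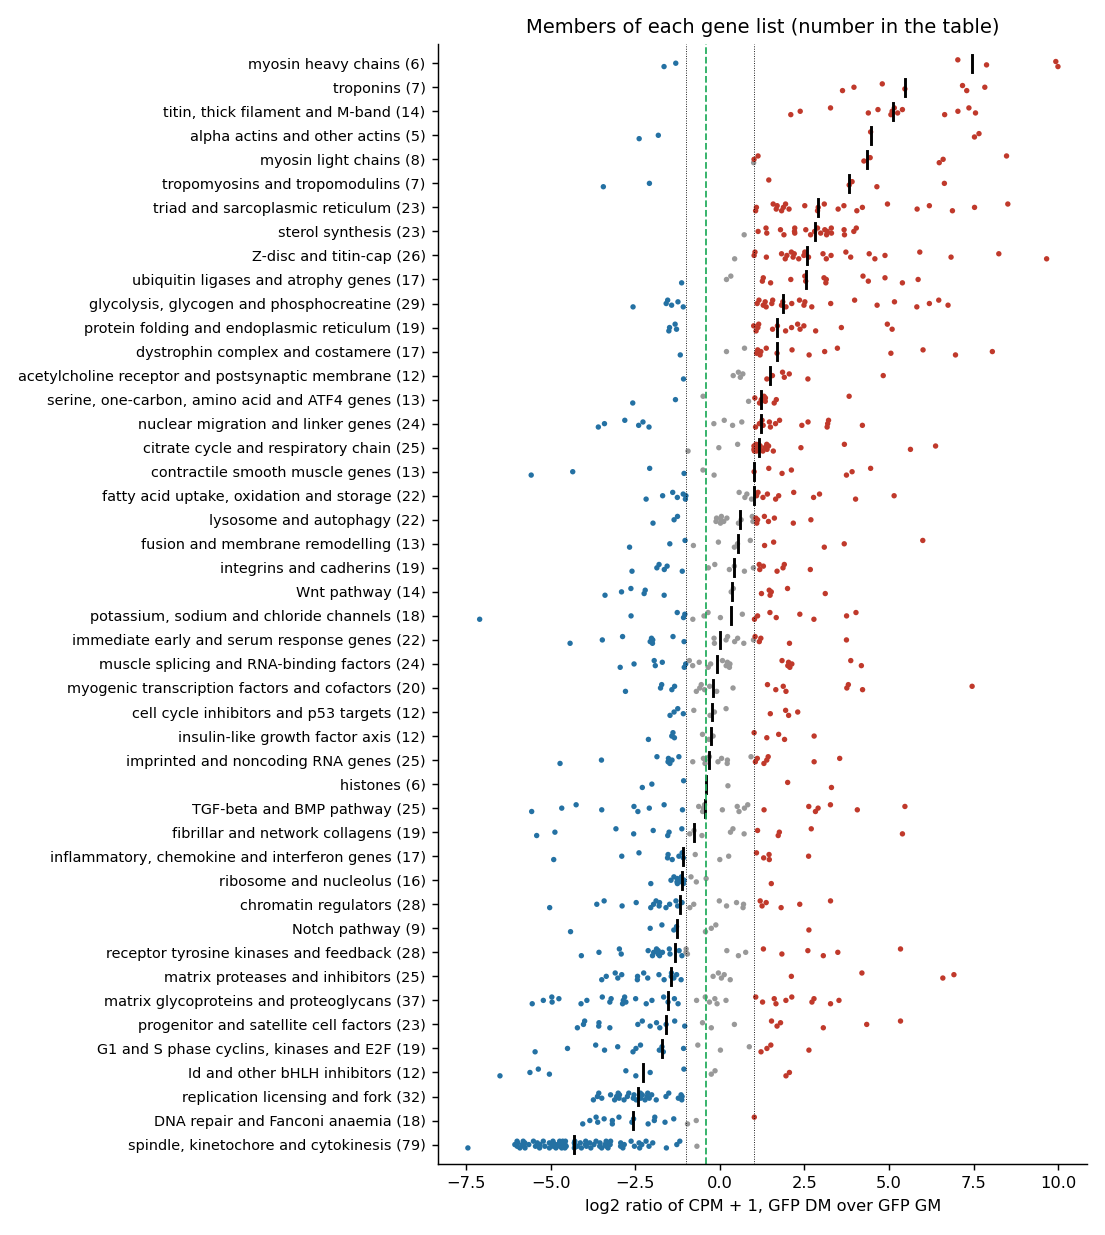
Log2 ratio of CPM + 1, GFP DM over GFP GM, of each listed member (points) of the gene lists with at least 5 members in the table, ordered by median (black bars); red and blue points are past 2-fold, dotted lines mark 2-fold and the green dashed line is the median of all listed genes, -0.40. Myosin heavy chains have the highest median and spindle genes the lowest, and the lists in the middle hold members on both sides.

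Few markers of other cell types were listed, but a marker outside the table is not shown to be unexpressed. No endothelial marker of 14 and no leukocyte marker of 17 was listed, and 1 of 13 adipocyte markers (Dgat2) and 1 of 15 Schwann cell and neuron markers (Tubb3) were. Of 20 fibroblast markers 6 were listed, with summed levels of 872 CPM in GFP DM and 1354 CPM in GFP GM; 3 were called lower and 0 higher, or 1 and 0 with outside-table scaling, and the defining gene Ly6a had 0 reads in GFP DM and 11.0 CPM in GFP GM. Pericyte and smooth muscle markers, 7 of 13 listed, went apart, with summed levels of 14527 CPM in GFP DM and 2096 CPM in GFP GM. Rgs5 (0.108 CPM in GFP DM and 51.7 CPM in GFP GM) and Notch3 were called lower, while Acta2 (7948 and 361 CPM), Des and the channel subunit Abcc9 (51.0 and 0.308 CPM) were called higher. Acta2 and Des are also expressed by differentiating muscle cells. The part of other cells in these values was not tested.

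Some called genes were neighbours. With gaps of at most 100 kb between listed genes, 137 stretches held at least 4 listed genes, and within them 14 runs of at least 4 consecutive genes were called in 1 direction, 9 higher and 5 lower. As 73.5% of genes were called, such runs are read as positions only. On chromosome 11, Sco1, Myh3, Myh1 and Myh8 between 67052670 and 67308634 were all called higher. On chromosome 7, so were Tnni2, Lsp1, Tnnt3, H19 and Igf2 between 142441808 and 142666816. On chromosome X the transcription elongation factor-like genes Tceal8, Tceal5 and Tceal7 and their neighbour Wbp5, between 136168984 and 136247139, had log2 ratios between 1.63 and 6.27. Chromosome 19 held the fatty acid desaturases Fads2 and Fads3 with Best1 and Rab3il1, called higher, and, between 5133158 and 5495201, a run of 6 genes called lower, including the AP-1 factor Fosl1 and cofilin (Cfl1). Members of such families share sequence, and genes between the listed ones were not analysed here.

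Promoter letters differed in frequency between the muscle, mitotic and sterol groups. RefSeq windows of 300 bases were found for 2927 of the listed genes, and genes with several starts count once for each window. Of 72 windows of spindle genes called lower, 68.1% held TTTGAA and 69.4% held CCAAT, against 17.9% and 37.4% of all 32851 promoter windows. Replication genes called lower shared the CCAAT box (62.5% of 32 windows) but not the core TTTGAA (9.38%). Of 74 windows of sarcomere and triad genes called higher, 35.1% held the E-box form CAGCTG and 16.2% the MEF2 core, against 16.3% and 3.19% of all windows. CAGCTG is itself 1 of the forms of CANNTG, which 78.4% of these windows and 72.3% of all windows held. Sterol windows, 18 in number, held CCAAT in 77.8% and TCACNCCAC in 5.56%, a single window, against 1.24% of all. Over all called genes CAGCTG stood in 21.7% of windows of genes called higher, 16.1% of those called lower and 15.1% of listed genes called neither. The GC-rich box GGGCGG was held by 60.4%, 66.0% and 64.5% of them, against 35.7% of all windows. Among genes at least 8-fold apart the shares lay further from each other: CAGCTG stood in 30.6% of windows of the higher genes and 19.1% of the lower ones, TTTGAA in 10.6% and 30.2%, and GGGCGG in 42.1% and 68.8%. A match is a description of letters and not of binding.

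**Figure D5:**
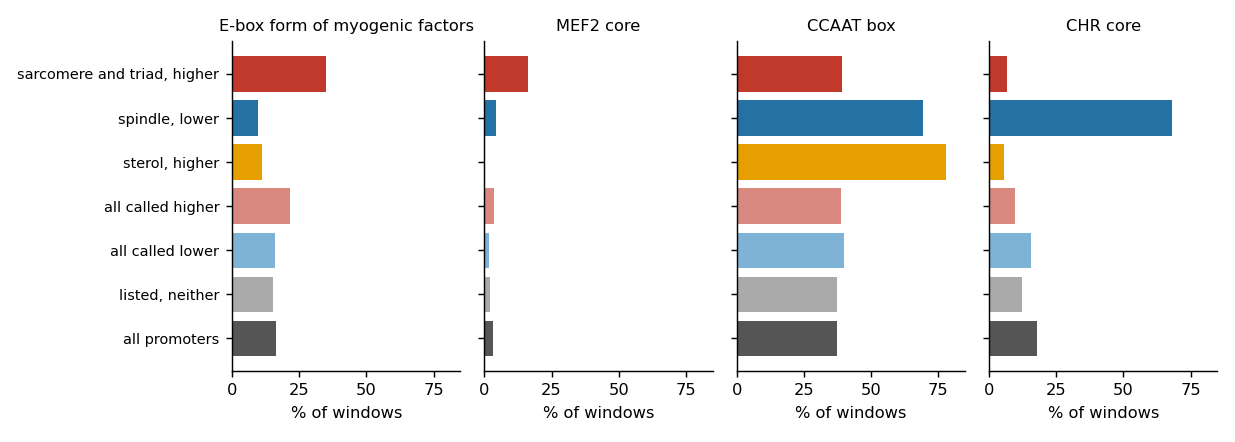
Share of 300-base promoter windows, in percent, that hold the E-box form of the myogenic factors, the MEF2 core, the CCAAT box and the cell cycle homology region (CHR) core, in 3 groups of lists, in all called and uncalled listed genes and in all promoters. The CHR core reaches 68.1% in spindle genes called lower and stays under 18% in the other groups.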

How the data were processed

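Total RNA was sequenced from 4 libraries, of which the GFP libraries are compared here. The values are CPM, deposited by the authors in 1 table of selected genes. GRCm38/mm10, TopHat2 2.0.0 and DESeq2 1.6.3 appear, without roles, in the submitters' processing notes. The read counter, its annotation and its use of strand are unstated in the labels. All CPM values were whole multiples, within 0.001 reads, of what 1 read is worth in their library, which gave the reads per gene and the library totals. Ratios were recomputed as log2 of (CPM + 1) and differed from the authors' deposited log2 column by at most 1.22e-11. A call needed a 2-fold ratio and 10 CPM or more in at least 1 GFP library. With 1 library per group no test was run; exact 95% binomial intervals and a floor of 3 reads, 0.325 CPM in GFP DM and 0.308 CPM in GFP GM, cover counting error only. The scripts (Python 3.11.15, numpy 2.4.6, pandas 2.3.3, scipy 1.17.1, matplotlib 3.10.9) were tested on simulated data.

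Genes were matched to GENCODE M21 by symbol (3609), older symbol (140) or not at all (11), for positions and for the longest transcript used as length. Promoter windows of 300 bases, 250 before and 50 after the start, came from RefSeq; genes of chromosome 18 were left out of the runs of neighbours and the printed sequences. The members of the 54 gene lists were chosen with earlier results of these data known. Named genes were to be a few known regulators, the 20 highest and 20 lowest ratios, the 10 genes with most reads in each library, and in each list up to 6 members with the largest ratios, the most abundant ones and up to 3 that went against its median. Other named genes were chosen after their values were seen, as was the sterol regulatory motif. Alternatives were other pseudocounts, CPM minimums, folds, scalings and a 150-base window. A few genes are not reported here.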

Additional observations from a re-analysis of the deposited data

Results flagged for a closer look

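Some genes lay in opposite directions in the arm with GFP and the arm with the Twist2 retrovirus, which share no library. Of the 1205 genes called higher in GFP DM, 761 were also called higher in Twist2 DM against Twist2 GM. A further 438 were called in neither direction there, and 6 were called lower. Of the 1511 genes called lower, 607 were also called lower there, 867 in neither direction and 37 higher. With 1 library a group the difference between the arms was not tested. All calls in this section are those in CPM, and these counts over both arms were not recomputed with other scalings. The lower calls with GFP of Dll1, Igfbp3, Ddit4 and Mmp19, at least, were lost with outside-table scaling. Values are log2 ratios, DM over GM.

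Named here are 22 of the 43 genes called in opposite directions, those that belong to a gene list or to the named genes. Among matrix genes, ratios were -3.07 with GFP and 1.93 with Twist2 for Col4a1, -1.50 and 2.21 for Col4a2, -2.54 and 2.05 for Col5a3, -3.21 and 1.29 for Thbs2, -1.53 and 1.89 for Bgn, and -2.49 and 2.01 for Spp1. Timp3, an inhibitor of metalloproteases, had -3.01 and 2.62, the protease Mmp19 -1.28 and 1.77, and the plasminogen activator Plat -2.90 and 1.56. Col4a1 had 142 CPM in GFP DM and 1200 CPM in GFP GM, and 3540 CPM in Twist2 DM and 927 CPM in Twist2 GM.

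Among genes of the Notch pathway, Notch3 had -4.41 with GFP and 2.11 with Twist2, its ligand Dll1 -1.36 and 2.72, and its target Hey1 -2.06 and 2.61. Receptors and secreted factors were Cxcr4 (-4.21 and 1.09), Gfra1 (-4.03 and 1.29), Pdgfc (-1.82 and 1.03) and Igfbp3 (-1.34 and 5.01). Igfbp3 had 121 CPM in GFP DM and 308 CPM in GFP GM, and 1553 CPM in Twist2 DM and 47.3 CPM in Twist2 GM. Further genes were the imprinted Mest (-4.72 and 1.97), the factor Sox8 (-2.29 and 3.93), the lipid carrier Fabp5 (-2.18 and 1.20) and the stress gene Ddit4 (-1.31 and 1.92). In the other direction, Col7a1 had 1.76 with GFP and -1.41 with Twist2, and the noncoding RNA Malat1 had 1.43 and -2.47.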

How the results depend on the processing

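No paired analysis was possible because each group has 1 library, and for the same reason no library could be left out. None of the 62 genes recomputed singly that was called changed direction under the alternatives run. The overall median, -0.40, was 0.37 with outside-table scaling, and there the negative medians of the TGF-beta, insulin-like growth factor, p53, collagen, splicing, imprinted, histone and myogenic factor lists were above 0. Of the counts, 968 genes were lower with median-of-ratios size factors (57.8% of calls then being higher) and 646 with outside-table scaling (69.8% higher), against 1511 in CPM. These scalings, and leaving the most abundant genes out of the library total, shifted the overall median log2 ratio by 0.34, 0.78 and 0.23. With a minimum of 50 CPM 709 genes were lower (56.7% of calls higher), and at 4-fold 451 were higher and 545 lower. Pseudocounts of 0.1 and 5 CPM, no minimum and intervals wholly past 2-fold kept both counts within 1.5 times. Of 62 single genes and 50 list medians, counted together as moved where a gene left its counting interval and shifted by over 0.1, or a median shifted by over 1.5-fold, 100 moved with outside-table scaling, 50 with size factors, 48 without the most abundant genes, 48 with a pseudocount of 5 CPM and 2 with 0.1 CPM. Genes with few reads have wide intervals, so that large shifts count as unmoved (Gja5, 7.55 with 1 CPM added, was 10.86 with 0.1 CPM). Of 18 motif shares, 12 left their binomial interval at 8-fold, where MEF2 in higher genes went to 8.94%, against 3.65% at 2-fold. The cause of these shifts was not tested. With 150-base windows all 18 left it. Those windows lie inside the longer ones, so a share could only stay or fall. The count of 18 therefore does not show whether the motif results depend on the window. In 150-base windows, TTTGAA stood in 59.7% of spindle windows and CCAAT in 61.1%, against 8.01% and 23.4% of all. Among sarcomere and triad windows 18.9% held CAGCTG and 8.11% the MEF2 core, against 9.40% and 1.275% of all. Sterol windows held CCAAT in 66.7%, and 0 of them held TCACNCCAC. Depth limits genes with few reads: 15 listed genes had 0 reads in GFP DM and 4 in GFP GM.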

Other observations

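Itm2a and Inpp4b, with higher levels in GFP DM, belong to none of the gene lists and were chosen after their values were seen. Itm2a, a membrane protein of developing muscle, had 2412 CPM in GFP DM and 52.2 CPM in GFP GM, and the phosphatase Inpp4b had 420 and 3.80 CPM. Among the genes with most reads, vimentin (Vim), the intermediate filament of myoblasts, had 3250 CPM in GFP DM and 6942 CPM in GFP GM, while desmin (Des), that of muscle, had 6503 and 1501 CPM. The lower call of Vim was lost with each of the other scalings. Of the 2716 called genes, 2020 were in no list.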
